A study of Mus musculus with 5 samples.

Results

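The genes described here encode the respiratory chain and the ATP synthase of mitochondria in mouse CD8 T cells, cytotoxic lymphocytes isolated by sorting. Members were chosen by a rule on gene names. Names starting with mt-Nd, mt-Co, mt-Atp or mt-Cytb gave the mitochondrially encoded genes, and names starting with Nduf (Ndufaf left out), Sdha to Sdhd, Uqcr, Cyc1, Cycs, Cox4 to Cox8 or Atp5 gave the nuclear ones. Of the 11564 genes in the deposited table, 88 met this rule, 7 of them encoded in the mitochondrial genome and 81 in the nucleus. Of the 81, 78 encode subunits or cytochrome c. Atp5s and Atp5sl are named like subunits without being ones, and Atp5k-ps2 is a pseudogene.

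Electrons from NADH enter the chain at complex I and those from succinate at complex II. They pass through complex III and the carrier cytochrome c to oxygen at complex IV, and the proton gradient built on the way drives ATP synthesis at complex V. Complexes I, III, IV and V combine subunits made from mitochondrial transcripts with subunits imported from the cytosol, whereas complex II is wholly nuclear. In T cells this machinery sustains resting and memory cells, and activated effector cells add strong glycolysis.

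RNA sequencing compared 3 libraries labelled PHD2-deltaT, by their description a PHD2 knockout, with 2 libraries labelled WT. PHD2, encoded by Egln1, is the oxygen sensor that hydroxylates HIF transcription factors and so leads to their breakdown. The labels state neither strain, age nor the driver of the deletion. Nor do they say whether libraries came from separate animals, so each p reflects spread among these samples that may be purely technical. Replicate numbers below follow the order of the labels and pair nothing.

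The deposited values are normalized counts, which summed to between 19593220 and 20253007 per library, and an inferred 10821714 to 15386484 reads stood behind them. Gene-level counts of Egln1 were higher in the libraries labelled PHD2-deltaT, with 5447, 4327 and 4993, against 1927 and 2182 in WT (log2 fold change 1.26, limma-trend, adjusted p = 2.86e-07). Counts over all exons cannot separate deleted from kept exons, so they check nothing about the deletion, and every direction below is that of the libraries as labelled. All 8 CD8 T cell markers of the list were in the table. Their summed counts were 82979, 83123 and 80494 in the libraries labelled PHD2-deltaT, against 89300 and 82664 in WT. Markers of other cells were few. Of the dendritic list 2 of 4 genes were in the table, and their sums were 201, 239 and 240 against 109 and 98.1 in WT. For natural killer cells 2 of 3 were in the table (4815, 4659 and 5482 against 3615 and 3339 in WT), and nearly all of that was Eomes, which CD8 T cells also express. For B cells 1 of 5 was in the table (182, 165 and 208 against 144 and 148), for myeloid cells 1 of 6 (82.4, 61.8 and 66.9 against 97.6 and 80.3), and for CD4 T cells 3 of 4 (749, 586 and 651 against 474 and 589.5). None of the 3 red cell, 2 platelet or 4 muscle and fat markers was in the table. The dendritic, natural killer and B cell values did not overlap between the labels, where 30.5% of all genes tested did not. By limma-trend Zbtb46 (log2 fold change 1.15, adjusted p = 0.00153), Itgax (1.06, 0.00752) and Eomes (0.51, 0.000858) were higher. Of all genes, 2.97% reached an adjusted p under 0.05 as higher. The CD8 marker Cd2 did so too (0.39, 0.00524), while Cd5, Trac, Cd3e and Cd3g were lower without overlap and did not reach it. The part of these differences in the results below was not tested.

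Transcripts of the mitochondrial genome were lower in the libraries labelled PHD2-deltaT, while nearly all nuclear subunits of the same complexes stayed near their WT level. Of the 7 mitochondrially encoded genes, 6 passed the test and all of these fell (limma-trend on log2(value + 1), adjusted p under 0.05), where 4.0% of all genes tested passed and 1.02% passed as lower. Their median log2 fold change was -0.52, against -0.01 over all 11534 genes tested. These 7 genes moved together from library to library, so their calls are not independent of each other. Of the 81 nuclear members, 1 passed, Ndufv3, which rose, and their median log2 fold change was 0.01. All 88 members were abundant enough to be tested. Fewer cells of a type and less RNA per cell cannot be told apart in such bulk libraries.

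**Figure D1:**
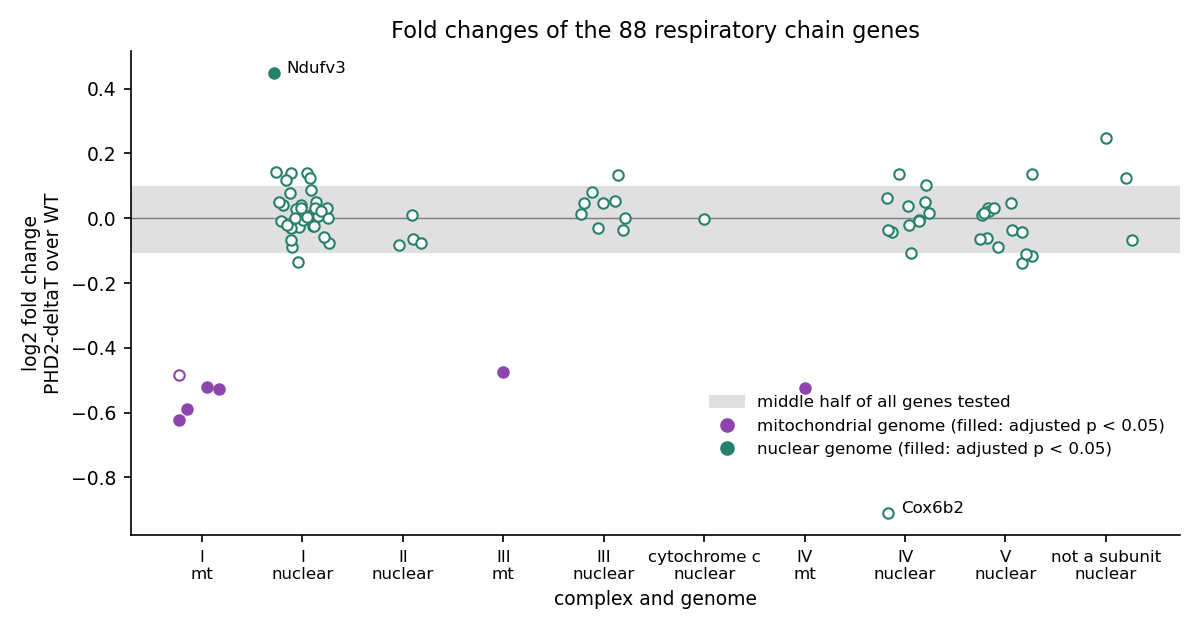
Log2 fold change of each of the 88 genes, libraries labelled PHD2-deltaT over WT, by complex (horizontal axis) and genome (colour). Filled points passed an adjusted p of 0.05, and the grey band holds the middle 50% of all genes tested. The 7 mitochondrially encoded genes lie between -0.62 and -0.47, and 78 of 81 nuclear genes lie within 0.15 of 0.

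The 7 genes lie on chromosome M of the mm10 build, 6 of them on the heavy-strand transcript (plus strand of the annotation) and mt-Nd6 on the other strand. The mouse mitochondrial genome holds 13 protein-coding genes, and the other 6 (mt-Co2, mt-Atp8, mt-Atp6, mt-Co3, mt-Nd3 and mt-Nd4l) were not analysed here. The nuclear genome carries old copies of mitochondrial DNA, and a read that matches both may be counted for neither or for either. Stretches of at least 50 bases with at least 95% identity to another annotated gene covered 100% of mt-Co1, 63.6% of mt-Nd4, 52.3% of mt-Nd5 and 49.1% of mt-Nd2. None was found for mt-Nd1, mt-Nd6 or mt-Cytb. Among the 6 genes not analysed here, such copies covered between 99.0% and 100% of 5, and none was found for mt-Atp8. The mt-Co1 stretch below shows how near such copies are. It was picked as the 60-base window with the most differences, summed over both copies, within the bases that both cover. It covers bases 1121 to 1180 of the gene, and letters of the copies that differ from mt-Co1 are in capitals. The copy Gm29216 (minus strand of chromosome 1, 24615706 to 24616197) has 0 differences there, and Gm13340 (minus strand of chromosome 2, 22588103 to 22589647) has 3.
mt-Co1: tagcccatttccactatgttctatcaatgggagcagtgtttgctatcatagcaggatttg
Gm29216: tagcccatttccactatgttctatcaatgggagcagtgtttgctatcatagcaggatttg
Gm13340: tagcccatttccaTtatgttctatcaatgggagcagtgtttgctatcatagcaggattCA

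Complex I holds 5 of the 7 genes, all core subunits of its membrane arm that take part in proton pumping. mt-Nd1 (chromosome M, 2751 to 3707), which lies next to the ubiquinone site, had 11965, 13813 and 10395 normalized counts in the libraries labelled PHD2-deltaT, against 16145 and 21099 in WT. Its means were 12058 ± 1711 (SD, n = 3) and 18622 ± 3503 in WT (SD, n = 2), so that the log2 fold change was -0.62 ± 0.11 (SE, limma-trend, adjusted p = 0.00349). Each SE and interval given here is moderated, as limma draws a gene's own spread (3 degrees of freedom) toward that of genes of like level (12.8). For the 7 mitochondrially encoded genes this made the SE smaller than the libraries alone would give. All values labelled PHD2-deltaT lay under both WT values, and replicate 3 was the lowest of all. mt-Nd2 (3914 to 4951), an antiporter-like pump subunit, had 8024, 8715 and 6923 in the libraries labelled PHD2-deltaT, against 10090.0 and 13843 in WT. Its log2 fold change of -0.59 ± 0.11 (SE) passed (adjusted p = 0.00524). Again the groups did not overlap, and the WT libraries lay further apart than the others did.

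mt-Nd4 (10167 to 11544) and mt-Nd5 (11742 to 13565) encode the other antiporter-like subunits of the arm. mt-Nd4 had 5119.7, 5134 and 4162 normalized counts in the libraries labelled PHD2-deltaT, against 6129 and 7766 in WT (log2 fold change -0.53 ± 0.10, SE, adjusted p = 0.00571). mt-Nd5 had 10167, 10351 and 8251, against 11809 and 15849 in WT (-0.52 ± 0.11, adjusted p = 0.0127). In both genes replicates 1 and 2 labelled PHD2-deltaT were close to each other and replicate 3 was lower. mt-Nd6 (13552 to 14070) is the light-strand gene, and 2.70% of its length overlaps mt-Nd5 on the opposite strand. The sources used here do not say whether counting used strand, so reads of mt-Nd6 and of heavy-strand RNA over the same bases cannot be told apart. mt-Nd6 had 2038, 2200.1 and 1639.6 in the libraries labelled PHD2-deltaT, against 2258 and 3275 in WT. The groups did not overlap, but replicate 2 came close to the lower WT value, and the log2 fold change of -0.48 ± 0.13 missed the threshold (adjusted p = 0.0529).

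mt-Cytb (14145 to 15288) encodes cytochrome b, the subunit of complex III that carries electrons across the membrane. It had 16669, 17096 and 13185 normalized counts in the libraries labelled PHD2-deltaT, against 19539 and 23859 in WT (log2 fold change -0.47 ± 0.11, SE, adjusted p = 0.0175). mt-Co1 (5328 to 6872) encodes the catalytic core of complex IV, where oxygen is reduced. Its counts were 26384, 31098 and 24256 in the libraries labelled PHD2-deltaT, against 35402 and 42864 in WT. Means were 27246 ± 3501.5 (SD, n = 3) and 39133 ± 5276 in WT (SD, n = 2), for which the log2 fold change was -0.52 ± 0.11 (SE, adjusted p = 0.00714). Both genes kept the groups apart, as did all 7, where 14.5% of all genes tested had every PHD2-deltaT value under both WT values. Because the 7 moved together across libraries, they do not count as separate observations. The median log2 fold change over the 3 genes without a nuclear copy was -0.48.

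The calls rest on WT replicate 2. Without it 0 of the 7 genes passed, at adjusted p between 0.106 for mt-Nd1 and 0.687 for mt-Nd6, where 2.12% of all genes passed, and the median log2 fold change was -0.36. Without WT replicate 1 all 7 passed and the median was -0.73. In limma without the mean-variance trend 0 passed, where 0.832% of all genes did, and with robust eBayes mt-Co1 and mt-Nd4 passed, where 4.16% did. In the authors' deposited table, whose log2 fold changes are WT over PHD2-deltaT, the 3 genes mt-Co1 (FDR 3.90e-05), mt-Nd4 (9.30e-05) and mt-Cytb (0.000812) were under 0.05. mt-Nd1 (0.0600), mt-Nd2 (0.0782), mt-Nd5 (0.145) and mt-Nd6 (0.402) were not. The authors' log2 fold changes of the 7 genes ran from 0.26 for mt-Nd6 to 0.45 for mt-Nd4. Each was smaller in size than the limma-trend value. Of all genes with an FDR in the authors' deposited table, 3.95% were under 0.05, 1.01% as lower and 2.95% as higher in PHD2-deltaT.

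The 3 other mitochondrial transcripts in the table, which encode no protein, were lower too. mt-Rnr2, the large ribosomal RNA, had 2939, 3497 and 3203 normalized counts in the libraries labelled PHD2-deltaT, against 4042 and 5494 in WT (log2 fold change -0.56 ± 0.11, SE, adjusted p = 0.00492). It no longer passed without WT replicate 2 (-0.33, adjusted p = 0.152) or without the trend (adjusted p = 0.245). mt-Rnr1, the small ribosomal RNA, had 2681, 2879 and 2171, against 2936.5 and 3667 in WT, and did not pass (-0.36 ± 0.11, adjusted p = 0.0876). mt-Tp, a transfer RNA on the light strand, had 334, 330.4 and 279.6 against 384 and 490.4 in WT, and did not pass (-0.47 ± 0.13, adjusted p = 0.0558). As for mt-Nd6, its reads cannot be told apart from those of heavy-strand RNA over the same bases. All 3 kept the groups apart.

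**Figure D2:**
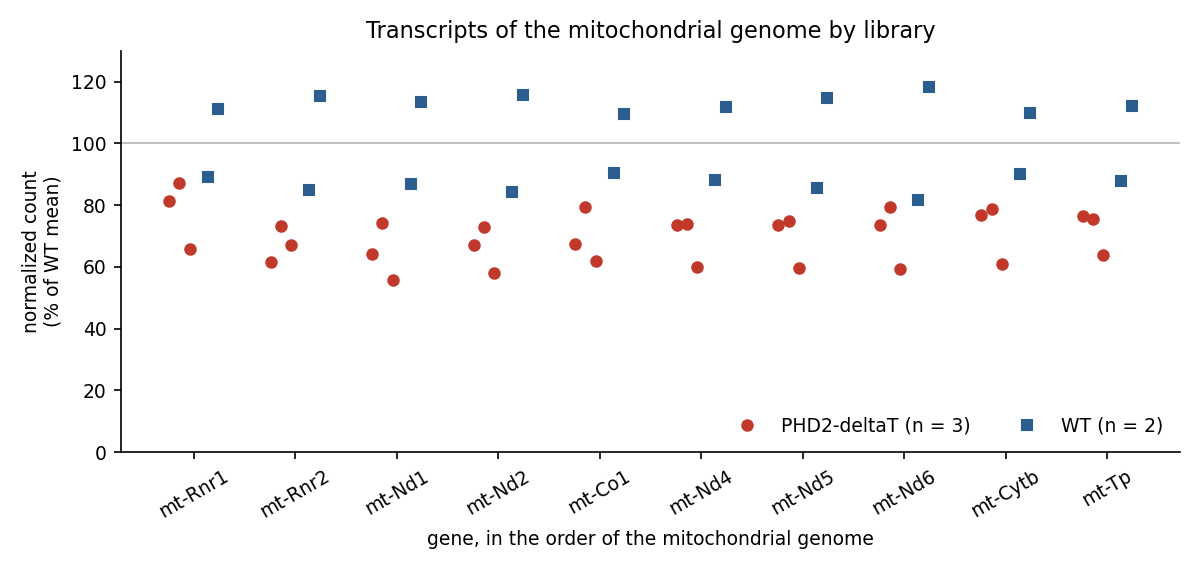
Normalized counts of the 10 transcripts of the mitochondrial genome in the table, as a percentage of the gene's WT mean (vertical axis), in genome order. Each red circle is 1 of the 3 libraries labelled PHD2-deltaT and each blue square 1 of the 2 WT libraries, in the order of their replicates from left to right. The 7 protein-coding genes in PHD2-deltaT replicate 3 lie between 55.8% and 62.0%, and WT replicate 2 is the highest library for each of the 10.

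The mitochondrial transcripts moved together from library to library. The 7 genes summed to 80367, 88406 and 68812 normalized counts in the libraries labelled PHD2-deltaT, against 101373 and 128556 in WT. As a share of the library total this was 0.410%, 0.4365% and 0.345%, against 0.504% and 0.649% in WT. The share averaged 0.397% ± 0.0472 (SD, n = 3) in the libraries labelled PHD2-deltaT and 0.577% ± 0.103 in WT (SD, n = 2), a difference of -0.179 percentage points that was -0.107 without WT replicate 2 and -0.252 without WT replicate 1. The WT libraries stood further from each other than WT replicate 1 stood from the highest library labelled PHD2-deltaT. The makeup of the pool was compared next. mt-Co1 made up 32.8%, 35.2% and 35.3% of the 7 genes' counts in the libraries labelled PHD2-deltaT, against 34.9% and 33.3% in WT. mt-Nd6 made up 2.54%, 2.49% and 2.38%, against 2.23% and 2.55% in WT. The shares of both genes overlapped between the labels, as did those of mt-Nd2, mt-Nd4, mt-Nd5 and mt-Cytb. The share of mt-Nd1 did not, by a small margin, with 14.9%, 15.6% and 15.1% in the libraries labelled PHD2-deltaT, against 15.9% and 16.4% in WT. For comparison, 30.5% of all genes tested had levels that did not overlap between the labels.

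Nuclear members of the chain summed to 300646, 324917 and 307595 normalized counts in the libraries labelled PHD2-deltaT, against 322637 and 303923 in WT, and the groups overlapped. Set against that sum, the 7 mitochondrial genes amounted to 26.7%, 27.2% and 22.4% in the libraries labelled PHD2-deltaT, against 31.4% and 42.3% in WT. The log2 of this ratio differed by -0.52, and by -0.31 without WT replicate 2. An exact permutation test of 3 libraries against 2, made two-sided by doubling the smaller tail, cannot go below 0.2, so no p is given for these sums. Leaving out each mitochondrial gene in turn kept the difference in the log2 ratio between -0.54 and -0.51. As the 7 genes moved together, leaving out a single gene could change this difference little.

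**Figure D3:**
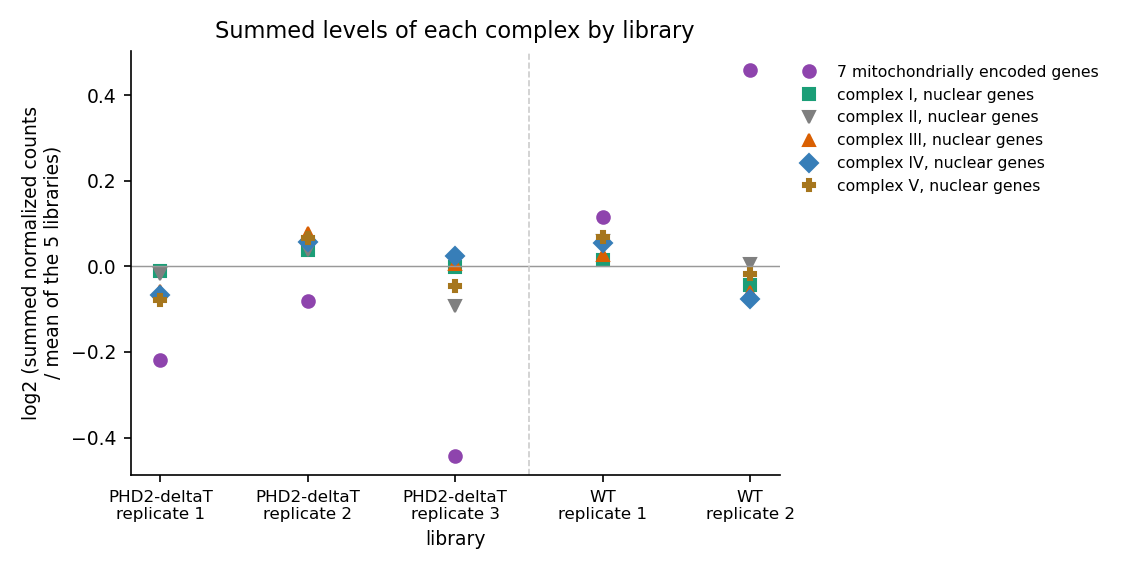
Summed normalized counts of the 7 mitochondrially encoded genes and of the nuclear genes of each complex in every library, as log2 over the mean of the 5 libraries. Libraries labelled PHD2-deltaT are left of the dashed line and WT right of it. The mitochondrial sum runs from -0.44 in PHD2-deltaT replicate 3 to 0.46 in WT replicate 2, and the nuclear sums stay between -0.09 and 0.08.

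Nuclear members differed little between the labels. Their fold changes lay within 0.15 of 0 on the log2 scale for 78 of 81 (96.3%), against 63.8% of all genes tested. The 2 sets were not matched for level. Median normalized counts per kb of exon were 1703 for the nuclear members and 141 for all genes tested. The part of level in this contrast was not tested. An unadjusted p under 0.05 was reached by 1 of 81 (1.23%), against 15% of all genes. Groups did not overlap for 7 higher and 6 lower members, where 16% of all genes did not overlap as higher and 14.5% as lower. The 95% intervals of the log2 fold change reached 0.163 to either side at the median, and between 0.144 and 1.075 over the members. For 79 of 81 nuclear members the interval did not include the mitochondrial median of -0.52, and for 2 weakly expressed ones, Cox6b2 and Atp5k-ps2, it did. Nearly identical stretches in other genes, most of them pseudogenes, covered at least 50% of the transcript of 10 of the 81, and those counts are less certain. By the authors' deposited table, 1 of 81 nuclear members, Ndufv3, had an FDR under 0.05 (0.000736), and the next smallest was 0.491.

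Complex I had 36 nuclear members, 7 of them core subunits and 29 accessory ones. Ndufv3 (ENSMUSG00000024038, chromosome 17, 31520115 to 31531331, plus strand), a small accessory subunit of the NADH-oxidizing module that exists in several splice forms, was the nuclear member that rose. It had 1950.0, 1577 and 1902 normalized counts in the libraries labelled PHD2-deltaT, against 1345 and 1295 in WT. Means were 1809.7 ± 203 (SD, n = 3) and 1319.9 ± 35.4 in WT (SD, n = 2), for which the log2 fold change was 0.45 ± 0.09 (SE, limma-trend, adjusted p = 0.00773). Every library labelled PHD2-deltaT was above both WT libraries, and replicate 2 was the nearest to them. It no longer passed without WT replicate 2 (log2 fold change 0.42, adjusted p = 0.0879) and in limma without the trend (adjusted p = 0.212). No exon base is shared with another gene, and no near-identical stretch was found elsewhere.

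None of the other 35 nuclear complex I members passed. Ndufs7, a core subunit that holds the last iron-sulfur cluster before ubiquinone, had 2025.5, 2132 and 2100.0 normalized counts in the libraries labelled PHD2-deltaT, against 1914 and 1876.5 in WT (log2 fold change 0.14 ± 0.07, SE, adjusted p = 0.396). Ndufb8, an accessory subunit of the membrane arm, had 1725.5, 1767 and 2043, against 1687 and 1653 in WT (0.14 ± 0.08, adjusted p = 0.486). Both had groups that did not overlap, by a small margin. Ndufa2, an accessory subunit of the NADH module and the complex I member with the highest level per kb of exon, had 1881, 2081.5 and 2145, against 2089.9 and 1903 in WT, and its groups overlapped (0.03 ± 0.08, adjusted p = 0.931). The core subunits had a median log2 fold change of -0.02 and the accessory ones of 0.03. The core subunits encoded in the mitochondrial genome had a median of -0.53.

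Complex II, which is also the succinate dehydrogenase of the tricarboxylic acid cycle, has no mitochondrially encoded subunit. Its 4 genes had a median log2 fold change of -0.07, and 0 passed. Sdha, the flavoprotein that oxidizes succinate, had 7426, 7474 and 6999 normalized counts in the libraries labelled PHD2-deltaT, against 7742 and 7643 in WT, all lower by a small margin (log2 fold change -0.08 ± 0.07, SE, adjusted p = 0.710). Sdhb, the iron-sulfur subunit, had 4234, 4141 and 3953, against 4467 and 4129.5 in WT (-0.06 ± 0.07, adjusted p = 0.773). Sdhc and Sdhd anchor the enzyme in the membrane. Sdhc had 2855, 3117 and 2621, against 3176 and 2881 in WT (-0.08 ± 0.08, adjusted p = 0.744). Sdhd had 3892, 4393 and 3898, against 4007 and 4053 in WT (0.01 ± 0.07, adjusted p = 0.978). Values of Sdhb, Sdhc and Sdhd overlapped between the labels.

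Complex III had 9 nuclear members, with a median log2 fold change of 0.05 and 0 calls, beside the -0.47 of mt-Cytb. All 9 had overlapping groups. Uqcr11, a small accessory subunit, had 2185, 2467 and 2488 normalized counts in the libraries labelled PHD2-deltaT, against 2287 and 2054 in WT (log2 fold change 0.13 ± 0.08, SE, adjusted p = 0.504). Uqcrh, the hinge protein beside cytochrome c1, had 5795, 5460.2 and 5896.5, against 5679 and 5143 in WT (0.08 ± 0.07, adjusted p = 0.712). Uqcr10, another small subunit, had 2955, 3168 and 3235, against 3109 and 2904 in WT (0.05 ± 0.07, adjusted p = 0.831). Cycs, the cytochrome c that shuttles electrons to complex IV and is released in apoptosis, had 3076, 3176 and 3096.5, against 3288 and 2963 in WT (-0.00 ± 0.07, adjusted p = 0.996). Its values in the libraries labelled PHD2-deltaT all lay between the WT values.

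Complex IV had 13 nuclear members, Ndufa4 and Cox7a2l counted among them, with a median log2 fold change of -0.00 and 0 calls, beside the -0.52 of mt-Co1. Several of its subunits have tissue- or oxygen-dependent alternatives, and most of the forms measured in these cells were the widely expressed ones. Cox4i1, the common form of subunit 4, had 6887, 7422 and 7189 normalized counts in the libraries labelled PHD2-deltaT, against 6998.5 and 6735 in WT (log2 fold change 0.06 ± 0.07, SE, adjusted p = 0.780). Cox4i2, its low-oxygen counterpart, was not analysed here. Ndufa4, first assigned to complex I and now counted with complex IV, had 3827, 4278.5 and 3947, against 4392 and 4249 in WT (-0.11 ± 0.07, adjusted p = 0.570). Cox7a2l, which links complexes III and IV in supercomplexes, had 4786, 4683 and 5022, against 4592.5 and 4209 in WT. Its groups did not overlap, and it did not pass (0.14 ± 0.07, adjusted p = 0.409).

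Cox7a2, its close relative within complex IV, had 3014, 3409 and 3206 normalized counts in the libraries labelled PHD2-deltaT, against 3349 and 3086 in WT (log2 fold change -0.00 ± 0.08, SE, adjusted p = 0.991). Cox6a1, Cox6b1, Cox7b and Cox8a are small subunits around the catalytic core. Their log2 fold changes were 0.02, -0.02, -0.04 and -0.01, and the smallest adjusted p among them was 0.879. Cox8a had 4740.3, 5633.5 and 5449 in the libraries labelled PHD2-deltaT, against 5805 and 4832 in WT, so that 2 of the 3 lay between the WT values. Cox6b2, the testis form of subunit 6b, was close to the lower limit of the table. It had 5.88, 13.2 and 16.0 normalized counts in the libraries labelled PHD2-deltaT, against 32.2 and 13.9 in WT. The groups overlapped and the log2 fold change of -0.91 ± 0.51 was too imprecise to tell from 0 (adjusted p = 0.444). Its partner Cox6b1 stood at 4111, 4240.0 and 4173, against 4463 and 4022.5 in WT.

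Complex V had 15 nuclear members, with a median log2 fold change of -0.04 and 0 calls. Neither of its mitochondrially encoded subunits was among the genes analysed. Atp5a1 and Atp5b form the catalytic ring of the F1 part. Atp5a1 had 29407, 32016 and 28709 normalized counts in the libraries labelled PHD2-deltaT, against 32519 and 31354 in WT, and the groups overlapped (log2 fold change -0.09 ± 0.08, SE, adjusted p = 0.704). Atp5d, the delta subunit at the foot of the rotating stalk, had 7940.4, 9184 and 8826, against 8373 and 7359 in WT (0.14 ± 0.08, adjusted p = 0.480). Atp5j, coupling factor 6 of the fixed outer stalk, had 3248, 3216.5 and 3121.5, against 3521 and 3504 in WT. Its groups did not overlap, but the log2 fold change of -0.14 ± 0.07 did not pass (adjusted p = 0.365). 12.7% of the exon bases of Atp5j overlap Gabpa on the opposite strand.

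The genes Atp5g1, Atp5g2 and Atp5g3 encode the same mature c subunit, the rotating membrane ring, behind different import sequences. Atp5g3 had 6910.0, 8231 and 7332 normalized counts in the libraries labelled PHD2-deltaT, against 8467 and 7737 in WT (log2 fold change -0.12 ± 0.08, SE, adjusted p = 0.591). Atp5g1 had 4490.3, 5635.5 and 5076, against 5684 and 4710.1 in WT (-0.04 ± 0.10, adjusted p = 0.925). Atp5g2 had 1908, 2089 and 2123, against 2089.9 and 1904 in WT (0.03 ± 0.08, adjusted p = 0.923). All 3 overlapped between the labels. The F1 subunits had a median log2 fold change of 0.01 and the stalk and membrane subunits of -0.04. The members that are not subunits, Atp5s (0.25 ± 0.25), Atp5sl (0.13 ± 0.09) and the pseudogene Atp5k-ps2 (-0.07 ± 0.30), did not pass.

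Levels per kb of exon, the mean over the 5 libraries, set the members of one complex apart more than genotype did. Medians per kb over the nuclear genes were 1346 for complex I, 1838 for complex II, 2480 for complex III, 3152 for complex IV and 2754 for complex V. The 7 mitochondrial genes ran from 4109 for mt-Nd4 to 20713 for mt-Co1, with a median of 9171. Among nuclear genes the highest levels per kb were those of Atp5a1 (9825) in complex V, Cox8a (8549) in complex IV, Uqcr10 (5264) in complex III, Ndufa2 (3532) in complex I and Sdhd (3289) in complex II. Exons of all annotated transcripts were joined, so a gene with long, rarely used exons appears too low. Ndufb2, at 29.2 per kb the lowest complex I member, and Atp5l, at 63.3 the lowest of complex V, were picked out after their values were seen. Near-identical copies cover 86.8% of the Atp5l transcript.

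**Figure D4:**
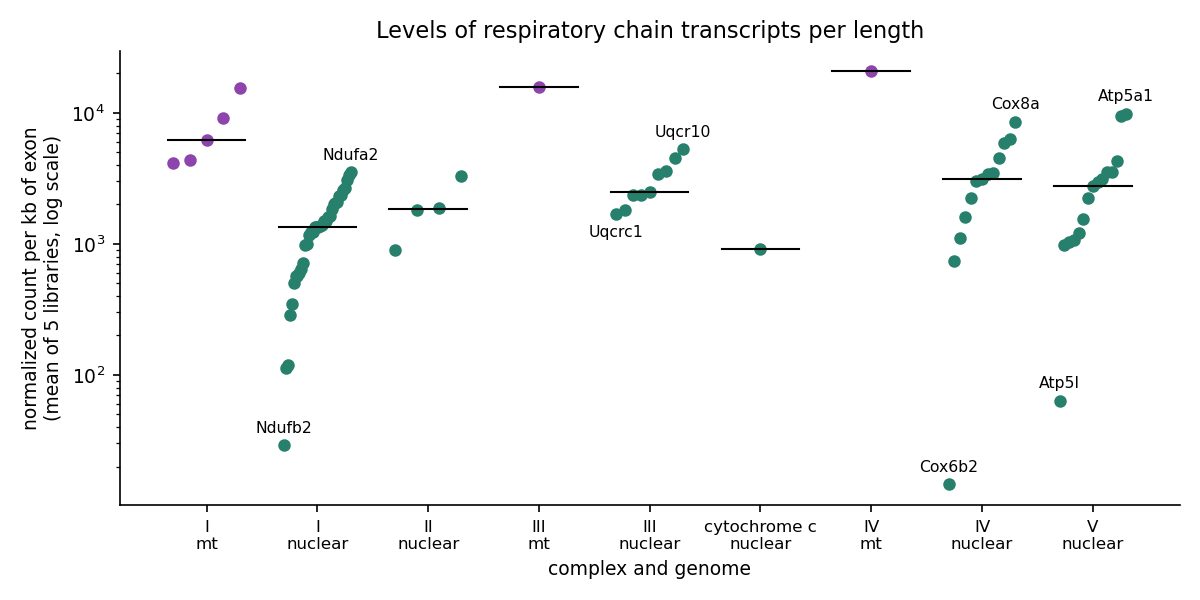
Normalized counts per kb of exon, mean of the 5 libraries on a log scale, for each mitochondrial (purple) and nuclear (green) member by complex. Black bars are medians. The mitochondrial genes lie between 4109 and 20713, and the nuclear medians between 917 for the single cytochrome c gene and 3152 for complex IV.

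Library-to-library movement of the nuclear members was small and did not follow the labels. The median log2 deviation of the 81 genes from their own means was -0.03, 0.05 and -0.01 in the libraries labelled PHD2-deltaT, against 0.04 and -0.05 in WT. The lowest value of a gene lay in PHD2-deltaT replicates 1, 2 and 3 for 23, 2 and 21 of the 81 genes, and in WT replicates 1 and 2 for 4 and 31. Over all genes tested these shares were 18.4%, 20.5% and 21.1% for the libraries labelled PHD2-deltaT and 17.9% and 22.1% for WT. The highest value lay in PHD2-deltaT replicates 1, 2 and 3 for 8, 31 and 16 genes, and in WT replicates 1 and 2 for 24 and 2. Over all genes tested these shares were 19.1%, 18.9% and 20.3% for the libraries labelled PHD2-deltaT and 18.4% and 23.3% for WT. WT replicate 2 thus had the highest mitochondrial counts of all 5 libraries together with the lowest value of more nuclear members than any other library. Sums of complex I nuclear genes were 71597, 74148 and 72063 in the libraries labelled PHD2-deltaT, against 72929 and 69958 in WT. Those of complex V were 122915, 135921 and 125622, against 136120 and 128052 in WT. Both sums overlapped between the labels.

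Genes that build, express and maintain the chain were read from the same fit, by lists chosen from their known function. Of 52 tested assembly factors 1 passed, and it rose, against 2.97% of all genes that passed as higher, and the list's median log2 fold change was 0.00. The list was matched by name, so Dmac2, deposited as Atp5sl, was counted with the chain members and not here. It did not pass. Higd1a, an inner membrane protein induced by low oxygen that associates with complexes III and IV, had 2500.1, 2168 and 2468 normalized counts in the libraries labelled PHD2-deltaT, against 1458 and 1535 in WT. The groups stood well apart (log2 fold change 0.67 ± 0.08, SE, adjusted p = 7.31e-05), and the call was lost in limma without the trend (adjusted p = 0.0652). Tmem126a, a complex I assembly factor, had the next smallest p in the list, with 816, 915 and 823 against 972 and 1114 in WT, and did not pass (-0.29 ± 0.09, adjusted p = 0.0969).

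Of 46 tested genes of mitochondrial gene expression 1 passed, and it rose, where 4.0% of all genes passed and 2.97% as higher. The list's median log2 fold change was 0.00, and 0 of 11 transcription genes and 0 of 21 RNA processing, stability and decay genes passed by limma-trend, with 0 and 0 at an unadjusted p under 0.05. Lonp1, a matrix protease that degrades mitochondrial DNA-binding and damaged proteins, had 5354, 4869 and 5444 normalized counts in the libraries labelled PHD2-deltaT, against 4131.5 and 4150.3 in WT (log2 fold change 0.33 ± 0.07, SE, adjusted p = 0.0122). The WT libraries were nearly equal and all others higher. It no longer passed without WT replicate 1 (adjusted p = 0.0983), WT replicate 2 (0.107) or the trend (0.197). Polg2, the accessory subunit of the mitochondrial DNA polymerase, had 227, 196 and 197, against 268 and 273 in WT, and did not pass (-0.39 ± 0.13, adjusted p = 0.120). Of 32 genes of mitochondrial biogenesis and mass 0 passed by limma-trend, with 4 (12.5%) at an unadjusted p under 0.05, against 15% of all genes, and the median was 0.03. The smallest p values in it belonged to Mxi1, a MYC antagonist (log2 fold change 0.39 ± 0.11, adjusted p = 0.0601), and Myc (0.18 ± 0.07, adjusted p = 0.244).

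**Figure D5:**
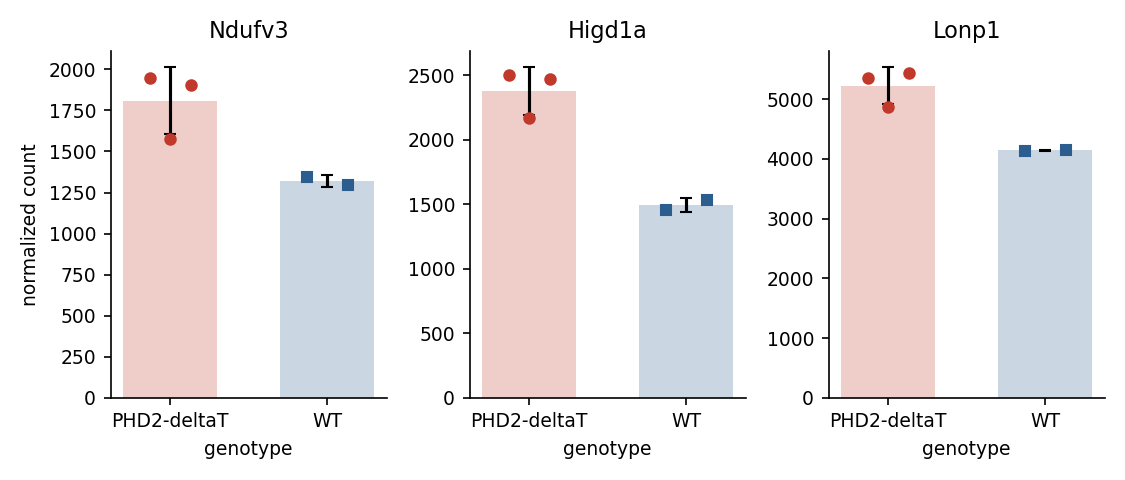
Normalized counts of Ndufv3, Higd1a and Lonp1 in each library (points), with the mean (bar) and SD (error bar) of the 3 libraries labelled PHD2-deltaT (left) and the 2 WT libraries (right). In all 3 genes each library labelled PHD2-deltaT lies above both WT libraries.

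Promoters of Ndufv3, Higd1a and Lonp1, the called genes of the chain, assembly and gene expression lists encoded in the nucleus, are shown because HIF is known to bind the core letters ACGTG and GCGTG. The sequences run from 250 bases before to 50 after the RefSeq start site on GRCm38.p6, 5′ to 3′ on the gene's strand, and capitals mark each match on either strand. Ndufv3 (chr17:31519865-31520164, plus strand) holds 4 matches, Higd1a (chr9:121857747-121858046, minus strand) 3 and Lonp1 (chr17:56626854-56627153, minus strand) 6, some of which overlap.
Ndufv3: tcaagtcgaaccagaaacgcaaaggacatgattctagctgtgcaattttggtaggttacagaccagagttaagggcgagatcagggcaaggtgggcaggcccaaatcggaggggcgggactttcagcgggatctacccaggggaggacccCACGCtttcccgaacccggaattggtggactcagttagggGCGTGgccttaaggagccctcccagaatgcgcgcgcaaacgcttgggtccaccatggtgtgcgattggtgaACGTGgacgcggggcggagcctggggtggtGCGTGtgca
Higd1a: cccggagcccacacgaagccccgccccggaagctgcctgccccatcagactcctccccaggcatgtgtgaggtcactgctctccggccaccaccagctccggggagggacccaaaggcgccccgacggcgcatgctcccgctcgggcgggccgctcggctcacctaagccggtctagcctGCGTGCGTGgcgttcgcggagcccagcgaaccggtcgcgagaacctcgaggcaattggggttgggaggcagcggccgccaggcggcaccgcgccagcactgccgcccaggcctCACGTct
Lonp1: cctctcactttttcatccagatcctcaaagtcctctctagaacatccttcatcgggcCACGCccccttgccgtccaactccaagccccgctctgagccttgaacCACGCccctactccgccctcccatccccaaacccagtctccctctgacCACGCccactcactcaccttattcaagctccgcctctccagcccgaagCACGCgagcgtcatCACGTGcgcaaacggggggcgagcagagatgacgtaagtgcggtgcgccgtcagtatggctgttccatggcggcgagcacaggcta

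Such matches are common. ACGTG was found in 15 of the 65 nuclear members with a RefSeq promoter (23.1%), against 21.8% of 27025 genes with promoters of the same length. GCGTG was found in 35 (53.8%), against 35.2%. A gene was counted if any of its promoters held the motif. At least 1 of the motifs was present in 63.1% of the members and 46.7% of all these genes. The members were not matched to these genes for level or base makeup, and the part of either in these contrasts was not tested. A match describes letters in this window and says nothing about binding in these cells.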

How the data were processed

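RNA of sorted CD8 T cells was sequenced in 5 libraries. The submitters' processing notes name the mm10 build with HTSeq 0.9.1, STAR 2.5.3 and Trimmomatic 0.36. They give neither the scaling of counts nor their strandedness. The authors deposited normalized counts per gene, a scaled signal and not raw reads, per the file headers. Each library's values are whole multiples of a step, and the inferred scaling constants accounted for 99.4% to 99.9% of low values, against 54.1% to 77.0% by chance. The authors also deposited log2 fold changes (WT over PHD2-deltaT, by their sign) and adjusted p-values headed FDR. Of 11564 gene IDs, 11538 were found in GENCODE M21, which gave positions and exons. Spreadsheet damage to 17 gene names was undone by ID.

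The 11534 genes that reached 10 in 2 or more libraries were fitted in limma 3.58.1 (R 4.3.3) as log2(value + 1), with genotype as the only term, a mean-variance trend, two-sided tests, Benjamini-Hochberg adjustment and a threshold of 0.05. Fold changes on this scale understate those of low genes. The script was checked on 5 simulated data sets, in which all genes shared the same spread (dispersion 0.00223). It recovered 53.2% of 1.25-fold and 82.4% of 1.5-fold changes, and 7.01% of its calls were false. The check does not cover genes that vary more, such as the mitochondrially encoded ones. Copies were searched with BLAST 2.17.0. Python 3.11.15, pandas 2.3.3 and matplotlib 3.10.9 made tables and figures. Members and lists were chosen with earlier results of these data known. Named were every mitochondrially encoded member, every called member, in each complex the 3 nuclear members with the smallest p and the one with the highest level per kb, isoform pairs, and in other lists the called genes or those with the smallest p. Of 88 members, 34 overlap exons of other genes, 3 of them over more than 20% of their bases. Promoters came from RefSeq. Alternatives changed the pseudocount, filter, scaling, variance model and libraries used.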

Additional observations from a re-analysis of the deposited data

How the results depend on the processing

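The median log2 fold change of the 7 mitochondrially encoded genes stayed negative under every alternative run, from -0.73 to -0.36 over the fits that left out 1 library. That of the 81 nuclear genes stayed between -0.04 and 0.06. The trend, robust eBayes and filter settings leave the fold changes of the 7 mitochondrial genes as they are, so they could not move the median of the 7. Counts of calls depended on the variance model and on WT replicate 2. Without the mean-variance trend 0 mitochondrial and 0 nuclear genes passed, and with robust eBayes 2 mitochondrial genes passed, for causes that were not tested. Leaving out 1 library gave 0 to 7 mitochondrial calls, 0 to 1 nuclear calls, a difference in the summed share of -0.252 to -0.107 percentage points and a difference in the log2 ratio of -0.74 to -0.31. The lone WT library is then assumed to vary like the other group. Pseudocounts of 0.5 and 10, no filter, a mean of at least 50, TMM, quantile and nuclear-only scaling, and array weights left 6 or 7 mitochondrial calls and 1 nuclear call. Of 26 named nuclear members without a call, 0 were called under any alternative, and 9 turned direction close to 0. Sdhd was -0.0032 with quantile scaling and -0.0037 with array weights. Leaving out 1 library gave -0.049 to 0.0383 for Sdhd, -0.0399 to 0.0949 for Ndufa2, -0.1422 to 0.1224 for Cox8a, -0.0775 to 0.0723 for Cycs, -0.0831 to 0.1181 for Cox6a1, -0.0963 to 0.0534 for Cox6b1, -0.0632 to 0.0548 for Cox7a2, -0.1718 to 0.0992 for Atp5g1 and -0.0365 to 0.0976 for Atp5g2. Count tests were not run because the values are scaled. Cox6b2 gave no value with a mean of at least 50. No paired analysis was possible because the labels give no replicate numbers. With 2 WT libraries, the unadjusted 95% intervals of the nuclear log2 fold changes reached 0.163 to either side at the median.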
